A study of Homo sapiens with 7 samples.

Results

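The KLK1 to KLK4 locus is a stretch of 96.0 kb on chromosome 19 (hg19, chr19:51320000-51416000) that carries 5 kallikrein genes in the order KLK1, KLK15, KLK3, KLK2 and KLK4. Its members here were the peaks of every deposited list that share at least 1 bp with this stretch, chosen by position alone. There were 103 of them among 148463 peaks in 6 lists. The replicate 1 list held 29, the replicate 2 list against input 26, the replicate 3 list against input 4, a list against input that no label ties to a library 31, the replicate 2 list against IgG 13 and the replicate 3 list against IgG 0. The rest of the family, KLK5 to KLK14, on chr19:51440000-51590000 (150001 bp), served as the background and held 11 peaks in all.

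The study mapped binding of HOXB13 acetylated at lysine 13 (HOXB13-K13ac) by chromatin immunoprecipitation and sequencing in C4-2B, an established castration-resistant line derived from LNCaP prostate cancer cells. The 3 groups are HOXB13-K13ac precipitations (3 libraries), IgG precipitations (2 libraries) and input chromatin (2 libraries). All were from untreated C4-2B cells in DMEM with charcoal-stripped serum, which is poor in steroid hormones, and no arm with androgen or without HOXB13 was among them. The data thus come from a single cell line. The labels do not state whether replicates were separate cultures, so spread between libraries, and any p-value resting on it, may be technical. Library titles carry one number for replicate 1 and another for replicates 2 and 3, without saying what it marks. Peak lists for IgG or input libraries themselves were not used here, the labels leave out which control replicate 1 was called against, and read depth is unknown for every list. The replicate 3 list stood apart over the whole genome, with 18232 peaks of a median −log10 q of 2.12, against 41303 (median 11.98) in replicate 1 and 45216 (median 7.64) in replicate 2. The lists hold no expression values, so the cell line label was not checked against marker genes.

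Kallikreins are secreted serine proteases. KLK3 encodes prostate-specific antigen, which liquefies semen and is the serum marker of prostate cancer, and KLK2 encodes a trypsin-like protease that can activate it. KLK1 is the tissue kallikrein that releases kinins, KLK4 is made in prostate and in developing enamel, and KLK15 is a further trypsin-like member. KLK3 and KLK2 are classical targets of the androgen receptor, which binds their promoters and an enhancer upstream of KLK3. HOXB13 is a homeodomain factor of the prostate lineage that shares many binding regions with the androgen receptor.

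The starts of KLK3 and KLK2 both lay inside a peak of replicate 1, of replicate 2 against input and of the unassigned list, though not of replicate 3 or of the lists against IgG, so the 250 bases before each start are shown, from RefSeq on GRCh38.p14 (KLK3, chr19:50854665-50854914, and KLK2, chr19:50873189-50873438, both on the plus strand). Capitals mark AGAACA, the half-site of the androgen receptor, the only one of the searched motifs found in either.
KLK3: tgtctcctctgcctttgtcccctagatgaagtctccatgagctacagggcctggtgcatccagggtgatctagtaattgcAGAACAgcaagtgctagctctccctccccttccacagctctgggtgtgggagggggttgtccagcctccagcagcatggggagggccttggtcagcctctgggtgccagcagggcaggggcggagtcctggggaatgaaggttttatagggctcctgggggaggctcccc
KLK2: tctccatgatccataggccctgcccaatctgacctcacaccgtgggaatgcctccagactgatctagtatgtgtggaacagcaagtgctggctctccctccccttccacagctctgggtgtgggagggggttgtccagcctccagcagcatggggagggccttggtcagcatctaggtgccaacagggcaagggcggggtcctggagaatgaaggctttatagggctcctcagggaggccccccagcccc

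The half-site of KLK3 ran from position -170 to -165, counted from the start. Such a half-site, on either strand, stood in 12.4% of 34788 distinct promoter windows of the same length. The other motifs searched, on both strands, included HOXB13 sites CCAATAAA (in 0.868% of the windows) and CTCGTAAA (0.118%). The forkhead site TGTTTAC (2.98%), the GATA site AGATAA (9.21%) and the MEIS site TGACAG (13.0%) were searched too. The full androgen element was searched only in its perfect spelling, AGAACA, a gap of NNN and the reverse complement of AGAACA (0.00287%). None of these spellings was in the KLK3 or KLK2 window. Full androgen elements with mismatches were not searched, so whether either window holds such an element was not determined. In a global alignment the windows were identical in 205 of 259 columns (79.2%), with 1 identical run of 80 bases. A read that falls wholly inside such a run matches both genes. The sources used here do not give how reads with several matches were placed, so the division of signal between the KLK3 and KLK2 starts is uncertain to that extent. The 15 bases that begin at the KLK3 half-site differed from the aligned bases of KLK2 by A1G (KLK3 base first, counted from the first of the 15), which takes the KLK2 copy out of the AGAACA spelling. Capitals mark that base.
KLK3 element: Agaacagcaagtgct
KLK2 element: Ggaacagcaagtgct

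Peaks were dense over the locus in replicates 1 and 2 and in the unassigned list, and sparse over KLK5 to KLK14. Replicate 1 had 3.02 peaks per 10 kb in the locus (exact 95% Poisson interval 2.02 to 4.34) against 0.0667 (0.00169 to 0.371) over KLK5 to KLK14, where it had 1 peak. Replicate 2 had 2.71 (1.77 to 3.97) against 0.133 (0.0161 to 0.482). In replicate 3 the densities were 0.417 (0.114 to 1.07), from 4 peaks, and 0.400 (0.147 to 0.871), from 6 peaks. The first 2 libraries thus showed the locus far above its neighbour, with intervals that do not overlap, while in replicate 3 the intervals nearly coincided. The difference was 1.85 ± 1.60 peaks per 10 kb (SD, n = 3 libraries), higher in the locus in 3 of 3, with p = 0.25 in a two-sided exact paired permutation test over libraries, which is the smallest p that 3 libraries allow. Replicate 3 decided the size of this mean, which was 2.76 without it. Cutting each list to its 18232 peaks of lowest p, the length of the shortest list, gave 0.990. Among peaks with a −log10 q of 5 or more, replicate 3 had 0 in the locus and 1 over KLK5 to KLK14, so the locus was then higher in 2 of 3 libraries. The Poisson intervals reflect counting error alone, although peaks that adjoin each other share signal.

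Over the whole span of the lists, peak density came to 0.138 per 10 kb for replicate 1, to 0.151 for replicate 2 and to 0.0608 for replicate 3. The KLK5 to KLK14 region of replicates 1 and 2 lay near that level, and that of replicate 3 above it. When the genome was cut into 31229 adjoining windows of the length of the locus, 0.0160% of them held 29 or more replicate 1 peaks, 0.0256% held 26 or more replicate 2 peaks and 2.10% held 4 or more replicate 3 peaks. For the unassigned list 0.00320% held 31 or more. These windows include those that cover the locus itself, and the shares are descriptions without a test, since the locus was taken up with its density known.

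**Figure D1:**
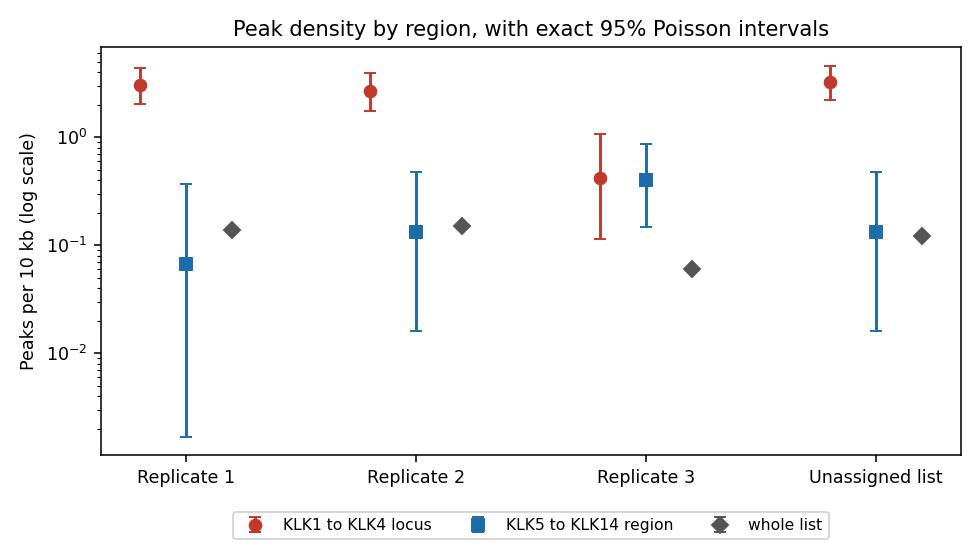
Peaks per 10 kb (log scale) in the KLK1 to KLK4 locus (circles), the KLK5 to KLK14 region (squares) and over the whole list (diamonds), for the 3 replicate lists and the unassigned list. Bars are exact 95% Poisson intervals. The locus lies above the other marks in every list, though in replicate 3 its 0.417 nearly coincides with the 0.400 of KLK5 to KLK14.

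Merging the peaks of the 3 replicate lists gave 28 regions in the locus. Of these, 17 held peaks of at least 2 libraries (60.7%, exact 95% binomial interval 40.6 to 78.5; 41.2% of all merged regions in the genome) and are called replicated sites. All 17 held peaks of both replicates 1 and 2, and 4 of the 28 held peaks of all 3 libraries (14.3%, 4.03 to 32.7; 6.99% in the genome). Both genome shares lie inside these intervals. In 2 of the 4, the replicate 3 peak had a q above 0.05. Regions lie close together here, and how far merging across short gaps added to these counts was not tested. Of the windows of locus length, 0.0192% held 17 or more replicated sites. Replicate 1 alone gave 4 regions and replicate 2 alone 7. The replicated sites were 517 to 4976 bp wide (median 1741 bp) and covered 40.1 kb, or 41.8% of the locus. Gaps between neighbouring sites ran from 10 bp to 9.83 kb, with a median of 416.5 bp. By list, peaks covered 33.4 kb of the locus in replicate 1 (34.8%), 41.9 kb in replicate 2 (43.6%), 34.5 kb in the unassigned list (35.9%) and 1.18 kb in replicate 3 (1.22%).

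**Figure D2:**
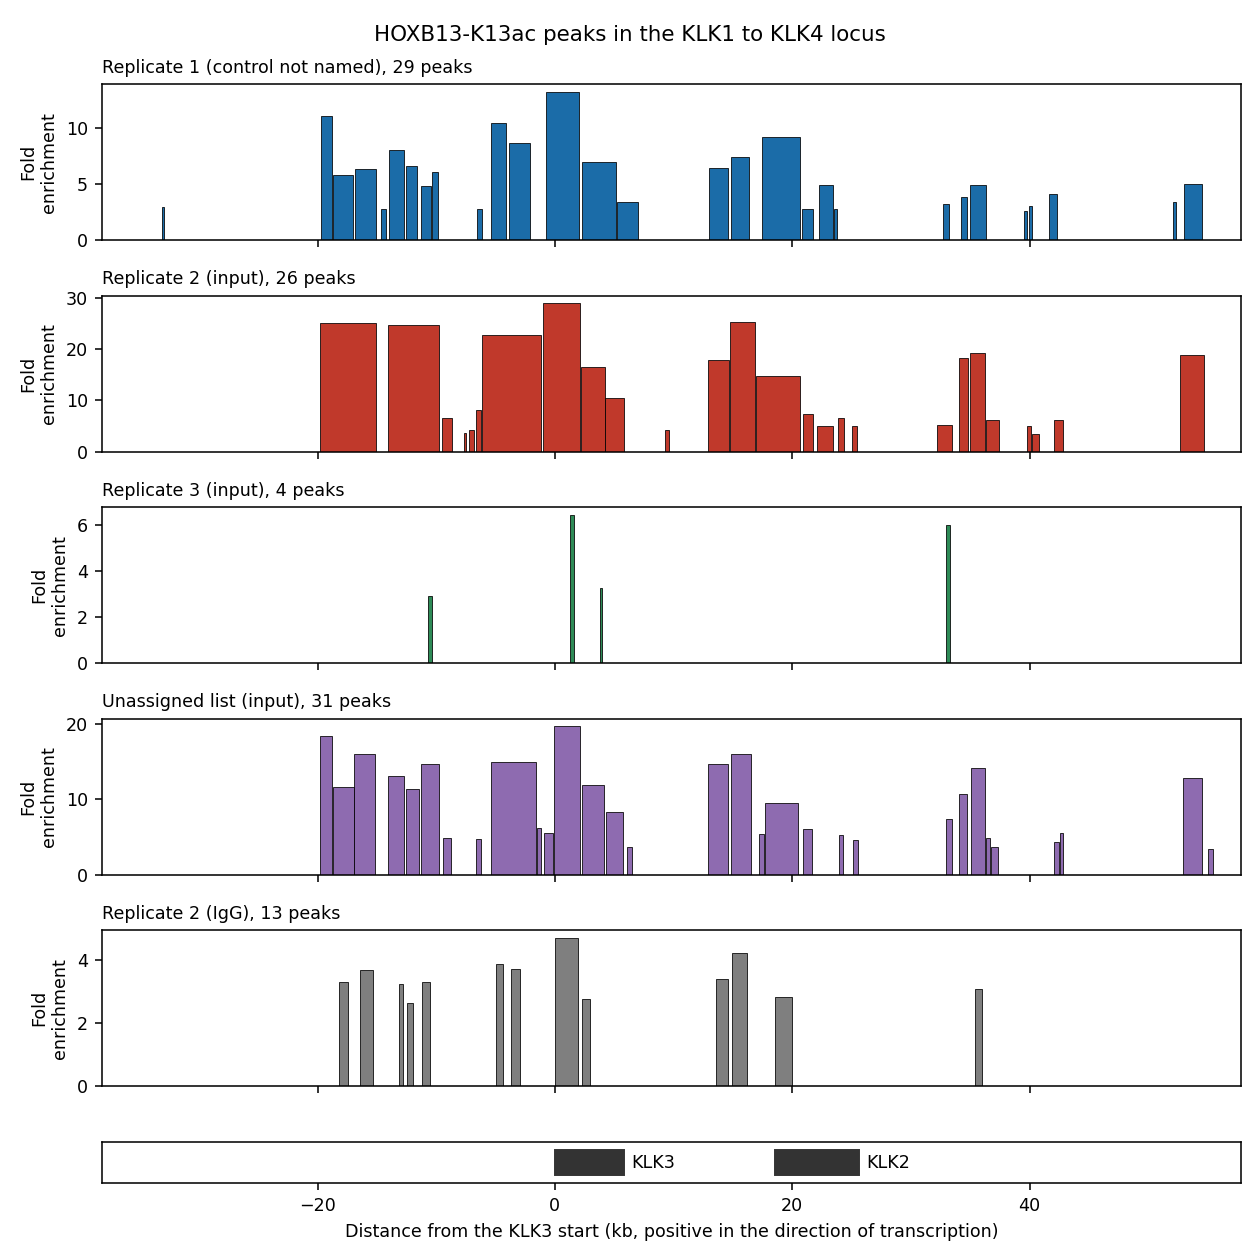
Peaks of 5 lists across the KLK1 to KLK4 locus. Each bar spans a peak from start to end on the horizontal axis, in kb from the KLK3 start, and its height is the authors' fold enrichment; the vertical scale differs between panels, and black boxes mark KLK3 and KLK2. Replicates 1 and 2 and the unassigned list show the same runs of peaks before and over KLK3, before and over KLK2 and downstream, while replicate 3 has 4 narrow peaks.

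The highest enrichment of the locus was at the start of KLK3. The site chr19:51357183-51360314, which spans from -0.988 kb to 2.14 kb relative to the KLK3 start, had a fold enrichment of 13.3 in replicate 1, 28.9 in replicate 2, 6.43 in replicate 3 and 19.7 in the unassigned list. This was the highest value of the locus in each of the 4 lists. Its summit lay 0.193 kb after the KLK3 start in replicate 1, 0.251 kb in replicate 2 and 0.227 kb in the unassigned list. In replicate 3 the summit was elsewhere in the gene, at 1.42 kb. Within their own lists these peaks ranked 2275, 1190 and 1183 by fold in replicates 1, 2 and 3, inside the top 5.51%, 2.63% and 6.49%.

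The body of KLK3 was almost wholly under peaks. Of the 5850 bp of the gene (chr19:51358171-51364020), 95.5% was covered in replicate 1, 97.2% in replicate 2 and 91.2% in the unassigned list, compared with 8.50% in replicate 3. Exons and introns were not assigned, because no hg19 gene models were used here. The next site, chr19:51360382-51365143, ran through the remainder of the gene and past its end. It had fold enrichments of 6.94, 16.4 and 3.28 in replicates 1, 2 and 3, and the replicate 3 peak there had a −log10 q of only 1.21. The summits of replicates 1 and 2 in it were 1413 bp apart, the largest distance among the sites of the locus.

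Upstream of KLK3, the site chr19:51352041-51357016 covered the stretch from -6.13 kb to -1.16 kb relative to the start, on the side where the KLK3 enhancer is known to lie. Replicate 2 called it as 1 peak of 4976 bp with a fold enrichment of 22.8. Replicate 1 called 2 peaks there, with fold enrichments of 10.5 and 8.65 and summits at -4.51 kb and -3.69 kb. The unassigned list had 14.9 with a summit at -4.48 kb, and replicate 3 had no peak there. The replicate 2 list against IgG also resolved 2 peaks, at -4.48 kb (fold 3.87) and -3.61 kb (fold 3.70).

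KLK2 showed a similar layout. The site over its start, chr19:51375129-51378805, had fold enrichments of 9.20 in replicate 1, 14.8 in replicate 2 and 9.51 in the unassigned list, and no replicate 3 peak. Its summit lay 0.146 kb after the KLK2 start in replicate 1 and 0.096 kb in replicate 2. Just before it were chr19:51372919-51375033, with fold enrichments of 7.47, 25.3 and 16.1 in replicates 1, 2 and the unassigned list, and chr19:51371073-51372813, with 6.49, 17.9 and 14.7. Their summits lay at -3.44 kb and -4.28 kb relative to the KLK2 start in replicate 1, and at -3.34 kb and -4.41 kb in replicate 2. In replicate 1 and in the replicate 2 list against IgG, each gene thus had a summit just inside its start. Each also had a pair from -4.51 kb to -3.34 kb. Against IgG, the peaks at 0.247 kb and -4.48 kb from the KLK3 start had a q of 0.05 or less. So did the peak at -3.34 kb from the KLK2 start. The peak at the KLK2 start (fold 2.81 over IgG) and the other peak of each pair did not reach that q. At KLK3 the site over the start was stronger than the upstream one in replicates 1 and 2 and in the unassigned list. At KLK2 this held in replicate 1, while in replicate 2 and in the unassigned list the upstream site was the stronger.

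Inside KLK2 enrichment was lower. Of its 7135 bp (chr19:51376689-51383823), peaks covered 62.6% in replicate 1, 74.0% in replicate 2 and 50.1% in the unassigned list, and 0 bp in replicate 3. The site chr19:51379035-51379931 had 2.82 in replicate 1 and 7.42 in replicate 2. The site chr19:51380223-51381641 had 4.89 and 5.06, the smallest ratio between these libraries in the locus, and lacked a peak in the unassigned list. A replicate 1 peak at chr19:51381692-51381982 (fold 2.80) and replicate 2 peaks at chr19:51382060-51382540 (6.62) and chr19:51383218-51383621 (4.94) were each called in a single replicate. Both of those replicate 2 peaks were met by the unassigned list. Between the genes, chr19:51367425-51367756 was called in replicate 2 alone with 4.19.

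**Figure D3:**
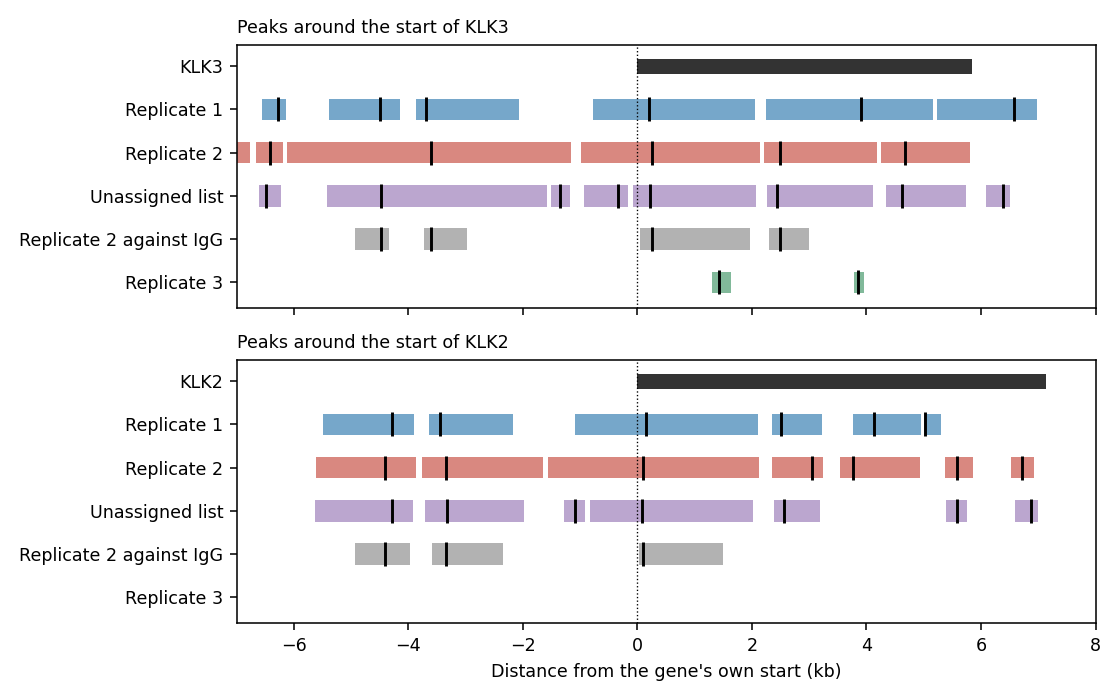
Peaks (bars) and summits (black ticks) around the starts of KLK3 and KLK2, in kb from each gene's own start, in 5 lists; dark bars are the genes. At both genes a summit falls at most 0.251 kb after the start in replicates 1 and 2 and the unassigned list. The replicate 2 IgG list shows this too. At each gene a pair lies from -4.51 kb to -3.34 kb in replicate 1 and the IgG list. In the IgG list, the KLK2 start peak and those at -3.61 kb (KLK3) and -4.41 kb (KLK2) have a q above 0.05. Replicate 3 has 2 peaks inside KLK3 and none around KLK2.

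Far upstream of KLK3, where KLK15 and then KLK1 are its protein-coding neighbours, 2 broad sites stood out. In the gene order, the long noncoding RNA gene LOC105372441 comes between KLK15 and KLK3. The site chr19:51338363-51343139, whose strongest replicate 1 summit lay at -19.1 kb from the KLK3 start, 38 bp from that of replicate 2, had fold enrichments of 11.1, 25.1 and 18.5 in replicates 1, 2 and the unassigned list. Its replicate 1 peak was the second highest of that library in the locus. The site chr19:51344070-51348393 had 8.05, 24.8 and 14.6, and replicate 3 had a weak peak in it with a fold of 2.91 and a −log10 q of 0.889. In replicate 2 each of these sites was 1 peak, of 4777 and 4324 bp, while replicate 1 called 3 and 4 peaks within them and the unassigned list 3 in each. Which of these positions belong to KLK15, KLK1 or LOC105372441 was not determined, because hg19 positions of these genes were not used here.

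Downstream of KLK2, towards the pseudogene KLKP1 and KLK4, replicate 2 exceeded replicate 1 most at 3 sites. The site chr19:51393190-51394482 had 4.89 in replicate 1, 19.3 in replicate 2 and 14.2 in the unassigned list. The neighbouring chr19:51392216-51392954 had 3.87, 18.3 and 10.8, a ratio of 4.74 between replicates 2 and 1 and the largest of the locus. The last site, chr19:51410852-51412835, had 5.06, 18.9 and 12.9. These last 2 sites were picked out after their values were seen. At the site chr19:51390374-51391673 replicate 3 exceeded replicates 1 and 2: the fold enrichments were 3.22, 5.28, 5.97 and 7.36 in replicates 1, 2, 3 and the unassigned list, and the 4 summits lay between 33.1 and 33.2 kb from the KLK3 start.

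Those 16 regions that the naming rule covers leave 12 others in the locus. Of the 12, 5 were replicated, including the 2 just named, with fold enrichments of 2.80 to 5.06 in replicate 1 and 4.97 to 18.9 in replicate 2. The other 7 rested on 1 library, 3 on replicate 1 (2.76 to 3.38) and 4 on replicate 2 (3.57 to 6.60). Over all 11 regions of a single library, the unassigned list had a peak in 4 of the 7 from replicate 2 and in 0 of the 4 from replicate 1. The matching shares over the genome were not computed, so these counts have no background to be judged by.

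Single peaks of the locus were not unusually strong in replicate 1. Their median fold enrichment was 4.89 (2.61 to 13.3) against 4.67 for the whole list, with quartiles of 3.22 and 6.94 against 3.47 and 7.37. In replicate 2 the median was 7.76 (3.38 to 28.9) against 6.50, and the upper quartile was 18.7 against 10.96. The 4 replicate 3 peaks had 2.91, 3.28, 5.97 and 6.43, with a median of 4.62 against 4.40. In the unassigned list the median was 8.36 against 6.39, and the upper quartile 13.7 against 9.91. The log2 ratio of the locus median to the list median was 0.13 ± 0.11 (SD, n = 3 libraries) and above 0 in 3 of 3, with p = 0.25 in the two-sided exact paired permutation test, again the smallest it can give. It was 0.07 without replicate 2. With lists cut to equal length, replicate 1 turned to -0.22, and 2 of 3 libraries were above 0. Among locus peaks, a −log10 q reaching 5 or more was found for 21 of 29 in replicate 1 (80.7% of its whole list), 19 of 26 in replicate 2 (67.2%), 24 of 31 in the unassigned list (72.7%) and 0 of 4 in replicate 3 (6.28%). By median fold of all its peaks, the locus stood near the background of the list in replicates 1 and 3. In replicate 2 and the unassigned list its median and upper quartile lay above those of the list. Among peaks with a −log10 q of 5 or more, the log2 ratio was 0.22 in replicate 1 and 0.90 in replicate 2.

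**Figure D4:**
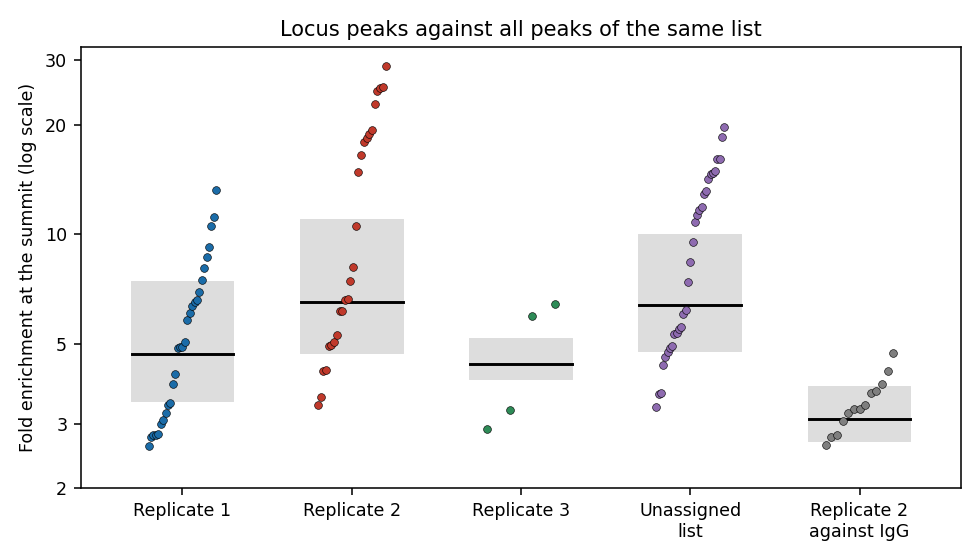
Fold enrichment at the summit (log scale) of each locus peak (points, sorted within a list) beside the whole list it came from (grey box, interquartile range; black line, median). Replicate 1 points spread on both sides of the list median of 4.67, and the upper replicate 2 points reach 28.9.

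By median width, peaks of the locus were broader than those of the whole list. Widths above 2 kb were found for 3 of 29 replicate 1 peaks (2.86% of its whole list), 6 of 26 replicate 2 peaks (5.62%), 3 of 31 peaks of the unassigned list (3.02%) and 0 of 4 in replicate 3 (0%). The whole-list share lay outside the exact 95% binomial interval of the locus for replicate 2 (8.97 to 43.6%) and inside it for replicate 1 (2.19 to 27.4%). It also lay inside that of the unassigned list (2.04 to 25.8%). The median width was 1005 bp in replicate 1, against 555 bp for its whole list, and 1152 bp against 635 bp in replicate 2. It was 796 bp against 588 bp in the unassigned list and, from 4 peaks, 308 bp against 235 bp in replicate 3. Per the labels' protocols chromatin was sheared to fragments of 1 kb and library fragments of about 250 bp were isolated from a gel, so a peak of 1 kb can come from a shorter bound stretch.

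Replicates 1 and 2 shared most of their locus peaks, but less often their summits. Of the 29 replicate 1 peaks, 25 met a replicate 2 peak (86.2%, exact 95% binomial interval 68.3 to 96.1; 76.9% for the whole list). In the other direction 19 of 26 did (73.1%, 52.2 to 88.4; 62.9%). Both whole-list shares lie inside these intervals. A replicate 2 summit within 100 bp was found for 5 of 29 replicate 1 peaks (17.2%, 5.85 to 35.8; 39.9% for the whole list). Single replicate 2 peaks held up to 4 replicate 1 peaks, and the part of this in the summit share was not tested. All 4 replicate 3 peaks lay in a peak of replicate 1 or 2 (30.8% for the whole list), which 4 peaks limit to an interval of 39.8 to 100%.

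Across the 17 replicated sites, fold enrichment was higher in replicate 2 than in replicate 1 at every site, by 1.04 to 4.74 times (median 2.37). The median over the 26760 sites that the 2 libraries share in the genome was 1.65. The share of those sites with a higher fold in replicate 2 was not computed. At these sites the locus had a median fold of 5.06 in replicate 1 and 17.9 in replicate 2, compared with 5.85 and 9.38 over the genome. The sites ranked alike in the 2 libraries (Spearman's rho 0.74, Pearson's r of log2 values 0.78, n = 17 sites of the same 2 libraries, without a test), near the rho of 0.71 over the shared sites of the genome. With the control of replicate 1 unstated and depths unknown, their part in this ratio was not tested. Replicate 2 and the unassigned list were closer, with a rho of 0.91 over 15 sites and a median distance between summits of 36 bp, compared with 141 bp between replicates 1 and 2, where the genome median is 80 bp.

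**Figure D5:**
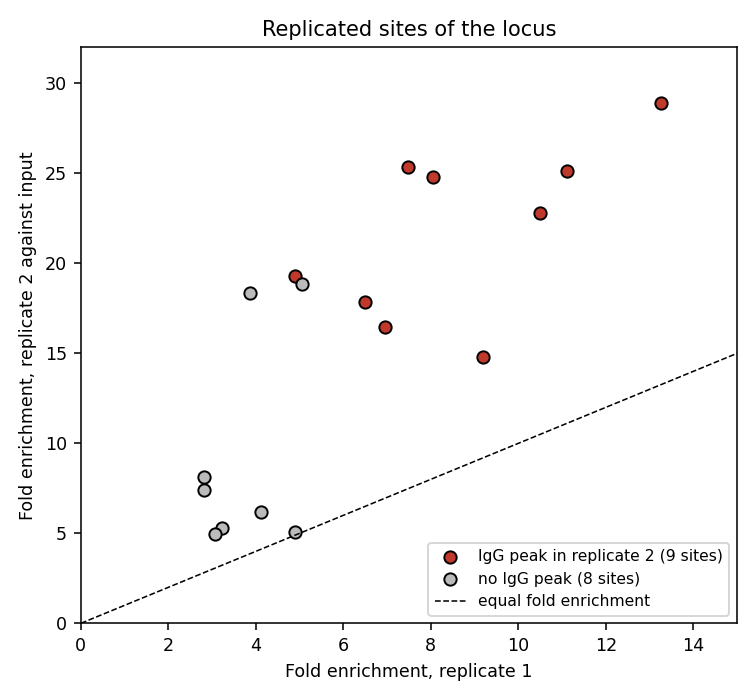
Fold enrichment of the 17 replicated sites in replicate 1 (horizontal) and in replicate 2 against input (vertical), coloured by whether the replicate 2 list against IgG has a peak in the site. All points lie above the line of equal values, where the genome median of the ratio of replicate 2 to replicate 1 is 1.65. The 9 sites with an IgG-list peak all have a replicate 2 fold of at least 14.8, while sites without one reach 18.9. Both replicate 2 lists come from the same precipitation.

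An IgG precipitation is the control for binding to a non-specific antibody, and replicates 2 and 3 were each called against IgG. The labels do not say which IgG library served for each. The 13 replicate 2 peaks over IgG all lay in replicated sites and met 9 of the 17, or 52.9% (exact 95% binomial interval 27.8 to 77.0), compared with 23.2% of replicated sites in the genome. Their fold enrichment over IgG was 2.63 to 4.70, against 14.8 to 28.9 over input at the same sites, 2 scales with different controls. A q of 0.05 or less was reached by 3 of 13 (21.5% of that whole list): the peaks with summits at -4.48 kb (fold 3.87) and 0.247 kb (4.70) from the KLK3 start and at -3.34 kb from the KLK2 start (4.20). With these alone, 3 of 17 sites were above IgG (17.6%, 3.80 to 43.4; 5.55% of sites in the genome). They were the KLK3 start, the stretch before KLK3 and the stretch before KLK2. The genome share lies inside this interval. Of the replicate 2 peaks called against input, 9 of 26 met a peak against IgG (34.6%, 17.2 to 55.7; 14.0% for the whole list). Sites with an IgG-list peak had a median replicate 2 fold over input of 22.8, the others 6.79, with a highest value of 18.9 among the others. Of the 13 summits over IgG, 8 lay within 10 bp of a replicate 2 summit over input. Both lists were called from the same replicate 2 precipitation. The closeness of summits and the higher fold over input at those sites are therefore not independent support. The matching share of summits over the genome was not computed. Replicate 3 had no peak over IgG here, and its list against IgG held 1 peak in the genome.

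The list without a library covered the same stretches. Of its 31 peaks, 29 met a replicate 2 peak (93.5%, 78.6 to 99.2; 90.9% for the whole list) and 23 a replicate 1 peak (74.2%, 55.4 to 88.1; 76.7%). It met 15 of the 17 replicated sites (86.9% of those in the genome). A replicate 2 summit lay within 100 bp for 15 of the 31 (48.4%, 30.2 to 66.9; 69.7%) and a replicate 1 summit for 11 (35.5%, 19.2 to 54.6; 46.6%). Peak overlap was thus near the background of the list, while summits coincided with those of replicate 2 less often than over the whole list. Single replicate 2 peaks held up to 3 peaks of this list, and the part of this in the summit share was not tested. Between the strongest peaks of a site, the summits lay within 100 bp at 10 of 15 replicated sites. No genome share was computed for that count.

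Over KLK5 to KLK14 the 3 replicate lists gave 7 regions. A single one was found in more than 1 library: chr19:51482514-51483509, present in all 3 with fold enrichments of 4.22, 14.1 and 5.05 and in the unassigned list with 11.3. The other peak of the unassigned list there, chr19:51484592-51484864, had 4.51. Replicate 2 had 1 further peak, at chr19:51479261-51479560, with 4.19. The other 5 regions were replicate 3 peaks with fold enrichments of 4.00 to 6.67, and none met a peak of another list. No peak over IgG was found in this region, and which of the 10 genes lies at each position was not determined here.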

How the data were processed

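The deposited files are 6 peak lists without headers in the layout of MACS2. The tools named by the submitters' processing notes are MACS2, Bowtie2, BWA and CASAVA 1.4, with hg19 and GRCh37 as builds. For roles, thresholds and filters the sources used here give nothing. Fold enrichment, a ratio at the summit to the local background of the control, was deposited by the authors, as were −log10 p and −log10 q values and summit positions. Lists were tied to libraries by spelling: replicates 1 and 3 differ by a single punctuation mark, and the list with an unmatched suffix stayed unassigned. Coordinates are counted from 1.

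Overlaps and intervals were computed in SciPy 1.17.1, pandas 2.3.3 and NumPy 2.4.6 under Python 3.11.15, by code tested on simulated lists. Peaks met when they shared at least 1 bp, and merged regions with peaks of at least 2 of the 3 replicate lists were replicated sites. The fold of a site in a list is the highest of its peaks there. Regions named in full were those of all 3 libraries, the 6 replicated sites with the highest replicate 2 fold, and those in or within 5 kb of KLK3 or KLK2. The locus, its genes, the comparisons and the lists were chosen with earlier results of these data known. Promoters came from RefSeq (GRCh38.p14), where 4 of the 5 genes had an entry. Alternatives changed the overlap rule, the q threshold, the list length and the libraries used. Exact tests over 3 libraries cannot go below p = 0.25. Motifs at summits were not searched, for want of an hg19 genome among the sources used here.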

Additional observations from a re-analysis of the deposited data

Results flagged for a closer look

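The list against input that no label ties to a library held 31 peaks in the KLK1 to KLK4 locus, more than any replicate list, and 2 over KLK5 to KLK14. It stands outside the tests over replicates, and no IgG counterpart of it was used here. Of the 13 summits that replicate 2 had over IgG, 11 lay within 100 bp of a summit of this list. The matching share over the genome was not computed. The source library of this list was not determined, so it may not be independent of the replicate lists.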

How the results depend on the processing

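The mean density difference between the locus and KLK5 to KLK14 stayed above 0 in the alternatives run, from 0.990 to 2.87 peaks per 10 kb, as did the mean log2 ratio of the locus median to the list median, from 0.07 to 0.56. Single libraries did not always follow: with a −log10 q of 5 or more the density difference of replicate 3 was -0.0667 (p = 0.5 in the exact permutation test, mean 1.32), and at equal list length the log2 ratio of replicate 1 was -0.22 (p = 0.75 in the exact permutation test, mean 0.15). Neither test could pass 0.05 with 3 libraries or fewer. Once a −log10 q of 5 was required, replicate 3 had no locus peak, so the second value then rests on 2 libraries. The 17 replicated sites became 7 with summits within 100 bp and 4 when all 3 libraries were required. Leaving out 1 replicate and requiring both others gave 4 to 17 sites: 4 without replicate 1, 4 without replicate 2 and 17 without replicate 3. With an overlap of 0.5 of both widths there were 12, with a −log10 q of at least 5 there were 13, and with the unassigned list in place of replicate 3 there were 21. The unassigned list may share reads with replicates 1 or 2. The 21 sites, and the density difference of 2.87 from the same exchange, may thus not rest on 3 independent libraries. The share of replicate 1 locus peaks that met a replicate 2 peak fell from 86.2% to 17.2% by summits and 37.9% by an overlap of 0.5 of both widths. The 9 sites with an IgG-list peak became 3 with a q of 0.05 or less. Depth is unknown, so the sparse replicate 3 list and a lack of peaks over IgG show only that no peak was called. No paired analysis was possible because peaks of the IgG and input libraries themselves were not used here, which leaves nothing to pair by replicate number across groups; the paired tests above set 2 values of the same library against each other.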
